A study of Arabidopsis thaliana with 4 samples.

Results

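The genes described here make and remodel xyloglucan, the polysaccharide that coats and tethers cellulose in the primary walls of Arabidopsis. They are CSLC04, XTH18, XTH20 and XTH26, and their members are the probe sets of the ATH1 array whose single annotated gene is one of these. Each gene had 1 such probe set, so there were 4 members among 22746 probe sets other than controls, and no limit on signal was used to choose them. The sorted-protoplast group holds 2 arrays of root cells whose walls had been digested away and which had passed through a cell sorter with no cell type selected. The whole-root group holds 2 arrays of intact roots that were not protoplasted. All were Columbia seedling roots, 6 days after germination, kept for 1 hour on medium containing 140 mM NaCl, so both groups carry the salt treatment and no untreated root is among the 4 arrays. Digestion and sorting were applied together, and their effects cannot be told apart.

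The xyloglucan backbone is a chain of glucose made in the Golgi by synthases of the CSLC family, of which CSLC04 is the best studied. Other Golgi enzymes add xylose and further sugars before the polymer is secreted. In the wall, xyloglucan endotransglucosylase/hydrolases (XTH) cut xyloglucan chains and join the cut ends to other chains, or to water. XTH18 and XTH20 belong, with XTH17 and XTH19, to a group of close relatives known for expression in roots, XTH20 mainly in the vascular tissue of the mature root, and XTH26 is known for expression in root hairs.

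Of the 4 members, 3 were tested after probe sets of low signal had been left out, and all 3 rose in sorted protoplasts: XTH18 by 2.80, CSLC04 by 2.14 and XTH20 by 1.74 on the log2 scale. XTH26 lay below the signal filter, and its signals were lower in sorted protoplasts than in whole roots. Of the 13647 probe sets tested, 6.38% were called higher and 4.11% lower by limma (adjusted p under 0.05). With arrays scaled on hybridization spike-ins instead of the authors' scaling, 38.2% of all calls were higher, against 60.8% as deposited. The signals of the 2 groups did not overlap for any of the 4 members, with 3 higher and 1 lower in sorted protoplasts, but that alone is common: 18.6% of all probe sets other than controls lay higher without overlap and 32.7% lower. All values are signals on a linear scale or differences of log2(signal + 16), where the offset of 16 understates changes of dim genes. Signals of different probe sets were not set against each other, since each probe set binds with its own strength.

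CSLC04 (AT3G28180), which makes the glucan backbone of xyloglucan, had signals of 1344 and 1505 on the sorted-protoplast arrays, against 223 and 430 on the whole-root arrays. The lower protoplast signal was 3.13 times the higher whole-root signal, and the protoplast arrays lay close together, at 1.12-fold apart. The whole-root arrays were 1.92-fold apart. The mean was 1424 ± 114 in sorted protoplasts and 327 ± 146 in whole roots (SD, n = 2 each), a ratio of means of 4.36. The log2 difference was 2.14 ± 0.40 (SE, 95% interval 1.24 to 3.04, limma adjusted p = 0.0103), larger than that of 96.6% of probe sets tested. CSLC04 was the only member that also passed when all 22746 probe sets were tested with no filter (adjusted p = 0.0487), where 1.73% were called higher. Its call was lost with spike-in scaling (1.69, adjusted p = 0.0922) and without whole-root replicate 1 (1.69) or whole-root replicate 2 (2.59). Leaving out either whole-root array removed most calls over all probe sets tested, so losses in those fits are not particular to a gene.

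XTH18 (AT4G30280) had signals of 241 and 1349 on the sorted-protoplast arrays, against 82.5 and 57.1 on the whole-root arrays. Both protoplast signals were above both whole-root signals, and the lower of them was 2.93 times the higher whole-root signal. The protoplast arrays, however, differed from each other 5.59-fold, a log2 gap of 2.41 that was larger than for 99.5% of probe sets tested. The mean was 795 ± 783 in sorted protoplasts and 69.8 ± 18.0 in whole roots (SD, n = 2 each), so the SD of the protoplast arrays was nearly as large as their mean. XTH18 rose by 2.80 ± 0.65 on the log2 scale (SE, 95% interval 1.34 to 4.27, limma adjusted p = 0.0253). The size depended on the protoplast array used: without sorted-protoplast replicate 2 the difference was 1.60, and without sorted-protoplast replicate 1 it was 4.01. With 1 protoplast array left, a fit cannot measure the spread between protoplast arrays, so no p-value is given for these 2 differences. The call was lost with no filter (limma adjusted p = 0.118), and also without whole-root replicate 1 (3.02) or whole-root replicate 2 (2.59). Transcripts of the plastid genome, 62 of them tested, also stood highest on sorted-protoplast replicate 2: their mean log2(signal + 16) was 9.56 and 10.61 on the sorted-protoplast arrays of replicates 1 and 2, against 7.44 and 7.07 on the whole-root arrays. Their part in the XTH18 difference was not tested.

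XTH20 (AT5G48070) had signals of 459 and 228 on the sorted-protoplast arrays, against 87.3 and 83.9 on the whole-root arrays. The groups did not overlap, and here the protoplast array with the higher signal was replicate 1, the reverse of XTH18. The whole-root arrays were 1.04-fold apart, closer than for all but 7.55% of probe sets tested, and the protoplast arrays 2.02-fold. The mean was 343 ± 163 in sorted protoplasts and 85.6 ± 2.4 in whole roots (SD, n = 2 each), a ratio of means of 4.01. XTH20 rose by 1.74 ± 0.40 on the log2 scale (SE, 95% interval 0.84 to 2.64, limma adjusted p = 0.0244). Of the 3 calls this one was lost most often with all arrays: with no filter (limma adjusted p = 0.0872) and with spike-in scaling (1.34, adjusted p = 0.195). It was also lost without either whole-root array (1.77 and 1.72) and without sorted-protoplast replicate 1 (1.26).

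XTH26 (AT4G28850) was dim on every array, with signals of 1.67 and 3.15 on the sorted-protoplast arrays, against 17.6 and 36.2 on the whole-root arrays. Both protoplast signals were below both whole-root signals, and only 16.2% of probe sets other than controls had a lower mean log2 value. Signals under the offset of 16, as both protoplast signals are, made up between 19.6% and 22.1% of the values on an array, and no detection calls were used here, so how far these values stand above background is not known. The mean was 2.41 ± 1.05 in sorted protoplasts and 26.9 ± 13.1 in whole roots (SD, n = 2 each). In the fit with no filter the log2 difference was -1.19 ± 0.28 (SE, 95% interval -1.85 to -0.52), which did not pass (limma adjusted p = 0.0867), and 0.602% of probe sets were called lower in that fit. The size depends on the offset, at -2.98 with an offset of 1 and -0.45 with an offset of 64. Without an array the difference was between -1.50 and -0.87, and it passed in none of those fits.

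**Figure D1:**
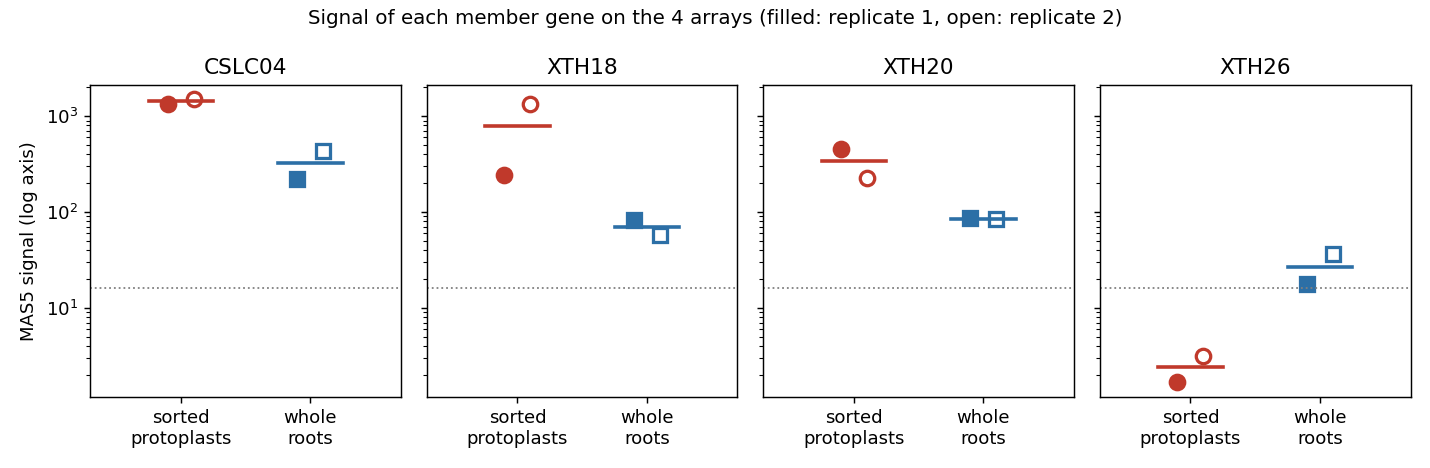
MAS5 signal (vertical log axis) of CSLC04, XTH18, XTH20 and XTH26 on the 2 sorted-protoplast arrays (red circles, left) and the 2 whole-root arrays (blue squares, right), with replicate 1 filled and replicate 2 open. Bars are group means and the dotted line is the offset of 16. The groups do not overlap for any gene, the XTH18 protoplast arrays lie 5.59-fold apart, and both XTH26 protoplast signals are under the offset.

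Markers of root hairs, where XTH26 is known to be expressed, were lower in sorted protoplasts as well. Of 9 root hair markers listed, 3 could be read from a probe set naming no other gene, and all 3 fell in sorted protoplasts, where 4.11% of probe sets tested were called lower. EXPA7, a root hair expansin, had signals of 161 and 222 in sorted protoplasts, against 607 and 1001 in whole roots, and differed by -1.95 ± 0.39 on the log2 scale (SE, limma adjusted p = 0.0135). EXPA18, another root hair expansin, had 121 and 150 in sorted protoplasts, against 741 and 812 in whole roots, a difference of -2.39 ± 0.35 (adjusted p = 0.00301). The third, MYC1, is a bHLH gene of the epidermis and not of hair cells alone, and its difference was -2.29 ± 0.38 (adjusted p = 0.00528). All 3 calls were lost without either whole-root array, and that of EXPA7 also with no filter (limma adjusted p = 0.0553). MYC1 had a mean signal of 49.5 in sorted protoplasts, under the filter limit near 51.3, so it was tested only through its whole-root signals. Summed over the 3, the signal was 344 to 409 on the sorted-protoplast arrays and 1713 to 2057 on the whole-root arrays, and none of the 3 was at 0. That sum comes mostly from the 2 expansins and depends on how strongly each probe set binds. The markers were listed with earlier results of these data known, so the fall of all 3 is no independent support. The part of these markers in the XTH26 values was not tested. In bulk RNA, fewer cells of a type and less RNA per cell cannot be told apart.

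The whole CSLC family of backbone synthases was measured, and its genes did not move together. Of the 5 CSLC genes, 1 rose (CSLC04), 1 fell (CSLC12) and 3 did not pass, where 6.38% of probe sets tested were called higher and 4.11% lower. The median log2 difference of the 5 was 0.44, against -0.16 over all probe sets tested. CSLC12 had signals of 25.4 and 53.3 on the sorted-protoplast arrays, against 130 and 127 on the whole-root arrays. Its protoplast signals were both below both whole-root signals, with a log2 difference of -1.43 ± 0.36 (SE, 95% interval -2.25 to -0.62, limma adjusted p = 0.0364). That call was lost with no filter (limma adjusted p = 0.121) and with array medians set equal (-1.34, adjusted p = 0.0526). It was also lost without either whole-root array and without sorted-protoplast replicate 1 (-1.06). The mean signal of CSLC12 in sorted protoplasts, 39.4, was under the filter limit near 51.3. CSLC12 was thus tested only through its whole-root signals, and it was not tested with the lowest 60% of probe sets left out. The 95% intervals of CSLC04 and CSLC12 lie on opposite sides of 0, and the difference between the genes was not itself tested.

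CSLC05 had signals of 603 and 419 in sorted protoplasts, against 140 and 289 in whole roots. They did not overlap, but the log2 difference of 1.25 ± 0.42 (95% interval 0.30 to 2.20) did not pass after adjustment (limma adjusted p = 0.0936). CSLC08 had 74.0 and 75.2 in sorted protoplasts, against 45.6 and 55.9 in whole roots, a difference of 0.44 with an interval from -0.28 to 1.17. CSLC06 had similar signals on all arrays, at 94.1 and 98.6 in sorted protoplasts, against 96.9 and 124 in whole roots, and its interval of -0.91 to 0.59 still allows changes of more than 0.5 in size on the log2 scale. The other genes listed for xyloglucan synthesis include the XXT xylosyltransferases and the galactosyltransferase gene MUR3. Neither these nor the 3 genes listed for trimming the side chains in the wall had a probe set naming them alone in the annotation used. That annotation leaves many probe sets without a gene, so the array itself may still measure them. So the backbone step is the only step of synthesis seen here.

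The XTH family was seen in part. Of 33 family members, 10 could be read from a probe set of their own and 5 of these were above the signal filter. In the annotation used, 8730 probe sets had no gene listed, so genes not read here may still have probe sets on the array. Over all probe sets tested, 6.38% were called higher and 4.11% lower. Of the 5 XTH genes tested, 2 rose (XTH18 and XTH20, chosen with earlier results of these data known), 0 fell and 3 did not pass. Their median log2 difference was 0.52, with a range from 0.42 to 2.80. These counts come after a filter that left out 5 members, so they do not describe the family.

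XTH19 lies directly beside XTH18 on chromosome 4 and is one of its closest relatives. It had signals of 324 and 741 in sorted protoplasts, against 418 and 316 in whole roots. The groups overlapped, and the log2 difference of 0.42 (95% interval -0.57 to 1.41) did not pass (limma adjusted p = 0.589). As with XTH18, the higher protoplast signal was on replicate 2. XTH24, on the other side of XTH18, and XTH17 had no probe set of their own in the annotation used. The 4 member probe sets carry the plain suffix that the array's makers give to probe sets not marked as shared between transcripts, but cross-hybridization between such close relatives was not tested.

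XTH27 had signals of 1329 and 749 in sorted protoplasts, against 791 and 602 in whole roots, which differ by 0.52 on the log2 scale (95% interval -0.37 to 1.42). XTH21, known for a part in root growth, had 119 and 48.0 in sorted protoplasts, against 51.0 and 48.7 in whole roots, a difference of 0.50 (95% interval -0.41 to 1.40). For both genes the groups overlapped and the test was not passed.

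Besides XTH26, the XTH genes below the filter were XTH16, XTH29, XTH32 and XTH33. XTH33 stood apart from the others, with signals of 19.7 and 36.8 in sorted protoplasts, against 3.03 and 2.31 in whole roots. Its groups did not overlap, and in the fit with no filter its difference of 1.22 ± 0.27 did not pass (limma adjusted p = 0.0767). XTH16, XTH29 and XTH32 had overlapping groups, with differences of -0.07, 0.13 and -0.72.

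**Figure D2:**
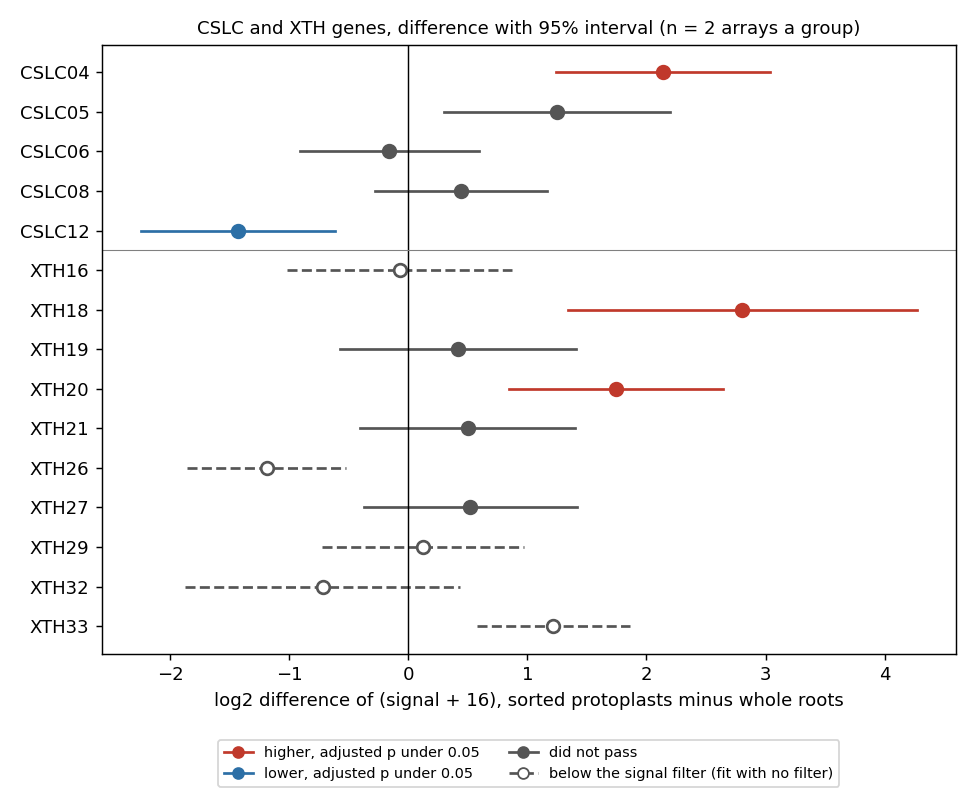
Log2 difference of (signal + 16), sorted protoplasts minus whole roots, with its 95% interval, for the 5 CSLC genes (top) and the 10 XTH genes with a probe set of a single gene, n = 2 arrays a group. Red marks genes called higher, blue the 1 called lower (CSLC12), grey those that did not pass, and open points with dashed lines genes below the signal filter, taken from the fit with no filter. CSLC04, XTH18 and XTH20 lie to the right, and CSLC12 and XTH26 to the left.

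Other wall genes moved in both directions. Over all wall lists, 130 genes were listed, 35 could be read from a probe set of their own and 26 were tested, of which 4 rose and 3 fell, with a median log2 difference of 0.43. Over all probe sets tested the shares called were 6.38% and 4.11%, and the median was -0.16. The members tested here are among those 4, together with IRX15. Without whole-root replicate 1 or whole-root replicate 2, 0 of these genes were called in either direction by limma, with 8 and 9 at an unadjusted p under 0.05 in those fits. With all arrays 7 were called and 12 had an unadjusted p under 0.05. With no filter 1 was called higher and 1 lower, and with spike-in scaling 1 higher and 3 lower.

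Expansins are proteins that loosen the bonds between wall polymers. Among 11 tested, 0 rose and 2 fell, the root hair genes EXPA7 and EXPA18 given above, with a median of -0.22. Of all probe sets tested, 6.38% were called higher and 4.11% lower. The expansin-like genes EXLA3 and EXLB1 had signals without overlap, EXLA3 at 203 and 695 in sorted protoplasts, against 125 and 142 in whole roots, and EXLB1 at 253 and 406, against 145 and 151. Their log2 differences of 1.41 ± 0.52 and 1.04 ± 0.37 did not pass (limma adjusted p = 0.119 and 0.110). EXPA9 also lay higher without overlap, and EXPB1 and EXPB3 lay lower without overlap. The differences of EXPA9, EXPB1 and EXPB3 were 0.78 ± 0.41, -0.84 ± 0.39 and -1.19 ± 0.38. They did not pass either (limma adjusted p = 0.266, 0.204 and 0.0776).

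Of 3 genes of xylan, the main matrix polysaccharide of xylem walls, 1 rose and 2 did not pass, where 6.38% of probe sets tested were called higher. IRX15, needed for normal xylan chains, had signals of 218 and 128 in sorted protoplasts, against 54.8 and 47.2 in whole roots, and rose by 1.46 ± 0.37 (SE, limma adjusted p = 0.0343). IRX10, a xylan xylosyltransferase, had 386 and 205 in sorted protoplasts, against 65.7 and 131 in whole roots, a difference of 1.44 ± 0.43 (adjusted p = 0.0653). The IRX15 call was lost with no filter (limma adjusted p = 0.113) and with spike-in scaling (1.08, adjusted p = 0.244). It was also lost without either whole-root array and without sorted-protoplast replicate 1 (1.11). The mean whole-root signal of IRX15, 51.0, was just under the filter limit near 51.3, so IRX15 was tested only through its protoplast signals. All 3 xylan genes were higher in sorted protoplasts with no overlap between groups, as were 18.6% of all probe sets other than controls, and replicate 1 was the higher protoplast array for each, as for XTH20. COB, which guides cellulose deposition, and CSLD2, a cellulose synthase-like gene of tip-growing cells, had overlapping groups and differences of -0.37 and -0.36. PME41, a pectin methylesterase gene, was below the filter. Its signals were 45.2 and 60.3 in sorted protoplasts, against 8.75 and 26.2 in whole roots, without overlap. In the fit with no filter its difference of 1.08 ± 0.37 did not pass (limma adjusted p = 0.189).

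Over the 4 arrays the members had different profiles, which is seen by taking each gene's log2(signal + 16) less its own mean. CSLC04 and XTH20 were the closest pair, with a Euclidean distance of 1.11, and XTH18 was 1.96 from CSLC04 and 2.62 from XTH20. XTH26, lower in protoplasts, was between 3.07 and 4.37 from the others. The 3 most similar genes were then taken from 1056 tested probe sets with a single gene that has a symbol. These likenesses rest on 4 arrays and are descriptions only. A gene chosen for a profile near a member's differs between the groups in the member's direction by selection. Whether such a gene passed is therefore no support for the member.

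The genes nearest to CSLC04 were psbH and psbM, both photosystem II genes of the plastid genome, and TET8, a tetraspanin gene, at distances of 0.31, 0.38 and 0.38. TET8 had signals of 4491 and 4873 in sorted protoplasts, against 1049 and 1742 in whole roots, a log2 difference of 1.78. Those nearest to XTH18 were ccb452, nad5 and nad1, all symbols of mitochondrial genes, at distances from 0.46 to 0.52. The nad5 probe set had 63.4 and 497 in sorted protoplasts, against 7.49 and 7.45 in whole roots, so it too was far higher on protoplast replicate 2.

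The genes nearest to XTH20 were LBD16, a regulator of lateral root initiation, TBL34, which acetylates xylan, and IRX15, at distances of 0.34 to 0.35. TBL34 had 363 and 224 in sorted protoplasts, against 70.6 and 91.6 in whole roots, a log2 difference of 1.64. The genes nearest to XTH26 were SEU, a transcriptional co-regulator, and ALN and AAH, whose enzymes act in the breakdown of purines, at distances of 0.19 to 0.21. None of these 3 passed, and AAH had 35.9 and 43.2 in sorted protoplasts, against 81.9 and 166 in whole roots. For XTH26 the nearness depends on the offset, which compresses its low signals.

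**Figure D3:**
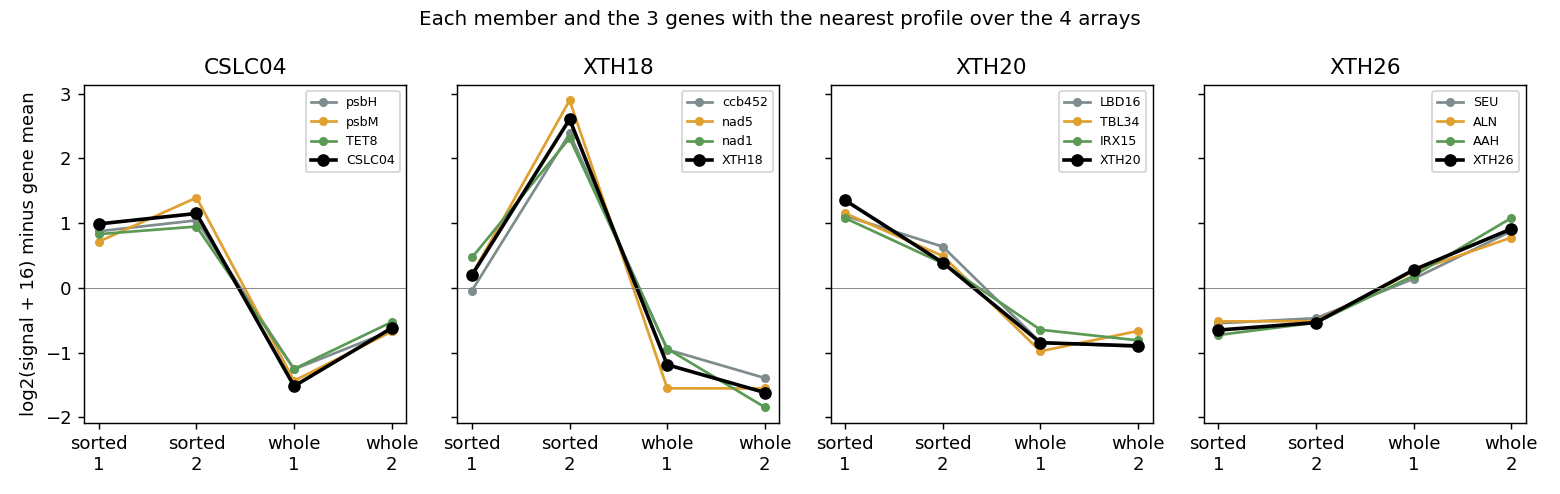
Log2(signal + 16) less the gene's own mean (vertical axis) on the sorted-protoplast and whole-root arrays, numbered by replicate, for each member (black) and the 3 genes with the smallest Euclidean distance to it (colours). XTH18 and its nearest genes peak on sorted-protoplast replicate 2, while XTH20 and its nearest genes are highest on sorted-protoplast replicate 1.

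The processing changed which members passed. CSLC04, XTH18 and XTH20 were higher, and XTH26 lower, in sorted protoplasts under every alternative run for them. Only the scalings could have changed these sides. Groups without overlap keep their side when an array is left out or the offset changes. The other settings leave the difference as it is. The calls of CSLC04 and XTH18 were each lost in 3 of 16 alternatives and that of XTH20 in 5 of 16. With all arrays XTH26 passed under no alternative, with a lowest limma adjusted p of 0.0509 with spike-in scaling. Its unadjusted p was 0.00448 in the fit with no filter.

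**Figure D4:**
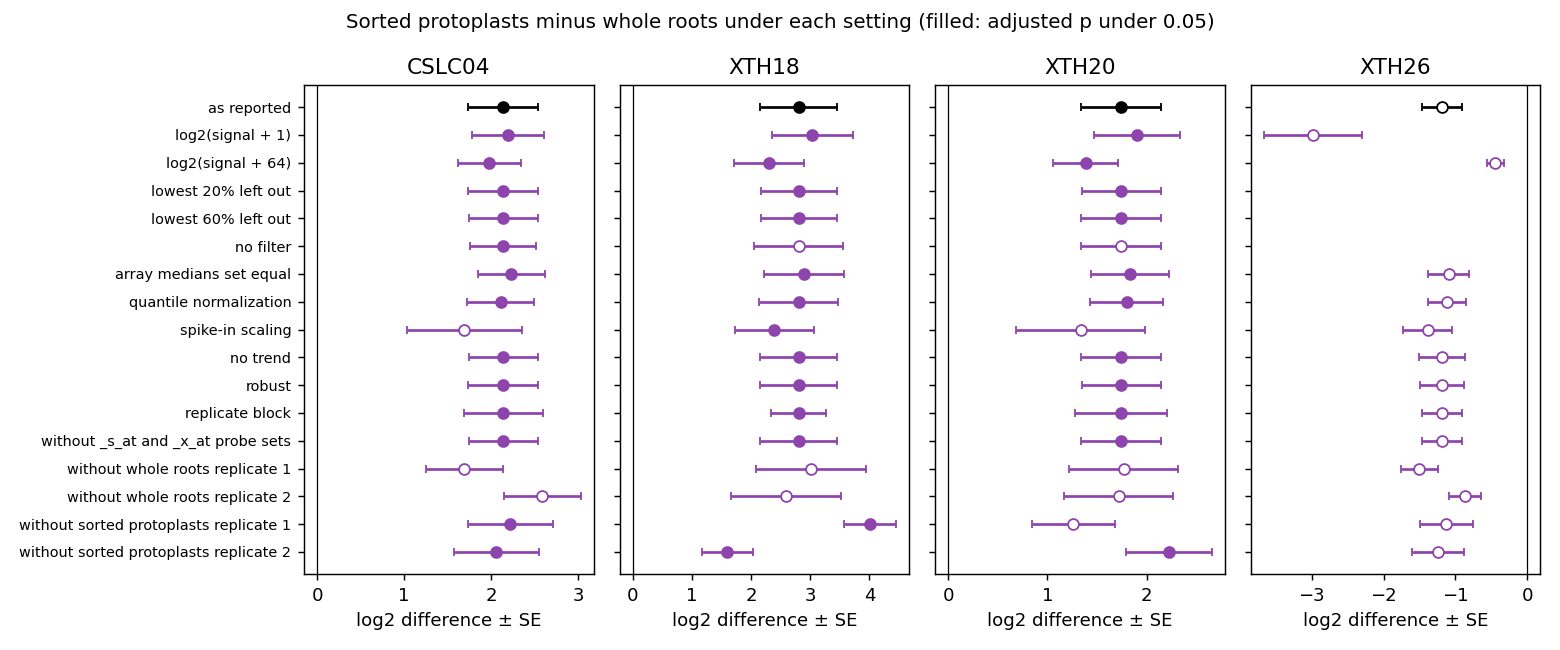
Log2 difference ± SE, sorted protoplasts minus whole roots (horizontal axis), for each member under each processing setting (rows), n = 2 arrays a group or 1 in the group with an array left out. Filled points have a limma adjusted p under 0.05, and the values as reported are in black. Where 1 array is left in a group, the fill does not reflect that group's spread. The XTH18 difference runs from 1.60 to 4.01. No point crosses 0, but only the scalings could have moved one across.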

How the data were processed

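The deposited intensities are linear signals that the authors computed per array and probe set with MAS5, according to the submitters' processing notes (version not given in the sources used here) after 2-cycle amplification per the labels. Each array's mean, with 2% trimmed at each end, was 250.02, so the authors had scaled the arrays alike. Groups and replicate numbers came from titles. 0 columns were unmapped.

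Gene names are those of GEO's platform annotation, brought up to date by Entrez identifier with RefSeq (TAIR10.1). 13513 probe sets had 1 gene, 503 several and 8730 were unlisted. All 64 control probe sets were left out. Of the rest, the dimmest 40% by mean log2(signal + 16) were also dropped, a limit near a signal of 51.3. limma 3.58.1 in R 4.3.3 was used (lmFit, eBayes with a trended prior, 2 residual and 7.56 prior degrees of freedom, Benjamini-Hochberg), and was tested on simulated data. Genes named are the members, the tested genes of both xyloglucan lists, passing or brightest genes of other wall lists, nearest profiles, neighbours and markers. A few others (XTH33 and other XTH genes below the filter, CSLD2, EXLA3, EXLB1, EXPA9, EXPB1, EXPB3, IRX10) were added after their values were seen. Members and lists were chosen with earlier results of these data known. Alternatives were offsets of 1 and 64, other filters, scalings and priors, a replicate block, and arrays left out. The labels do not say that replicates were separate plantings, so p-values may measure technical spread only, and the number of arrays limits the precision.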

Additional observations from a re-analysis of the deposited data

How the results depend on the processing

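The cause of the changes below was not tested unless stated. With 1 array left out, which assumes that a group of 1 varies like the other, the log2 difference ranged from 1.69 to 2.59 for CSLC04, from 1.60 to 4.01 for XTH18, from 1.26 to 2.22 for XTH20 and from -1.50 to -0.87 for XTH26. Probe sets called higher, 870 in the reported fit, ranged from 167 to 989 and those called lower, 561, from 25 to 649. Wall genes called higher, 4, ranged from 0 to 5 and those called lower, 3, from 0 to 4. With no filter, where more probe sets are tested, XTH18 (2.80) and XTH20 (1.74) lost their calls, 394 probe sets were called higher and 137 lower, and 1 wall gene each way. With spike-in scaling CSLC04 (1.69) and XTH20 (1.34) lost theirs, 421 were called higher and 680 lower, and 1 wall gene was higher. That scaling moved the median of all probe sets tested to -0.57, against -0.16 as deposited. Relative to these medians CSLC04 was at 2.26 with spike-ins and 2.29 as deposited, XTH18 at 2.96 in both and XTH20 at 1.91 and 1.90. That likeness was fixed in advance and tests nothing. Spike-in scaling divides each array by 1 factor, which subtracting the median removes, apart from the effect of the offset. At an adjusted p under 0.01, stricter by construction, 393 were called higher and 107 lower. XTH26 had no value with the lowest 20% or 60% of probe sets left out, being among them.

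The labels tie same-numbered arrays by nothing but the number, and the correlation between deviations of same-numbered arrays was -0.156 over the probe sets tested. A replicate block on that number gave these counts: 1123 probe sets called higher and 787 lower, and 7 wall genes higher. The block changed no member's call. With crossed replicate numbers, chosen after seeing the data, 1137 were higher and 922 lower. Both XTH26 signals from protoplasts lie under the offset of 16, so low signal limits what that gene can show.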

Other observations

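Besides XTH19, genes directly next to a member on its chromosome were measured in 3 cases. AT5G48060, next to XTH20, had signals of 322 and 217 in sorted protoplasts, against 102 and 59.8 in whole roots, and rose by 1.57 ± 0.38 on the log2 scale (SE, limma adjusted p = 0.0317), where 6.38% of probe sets tested were called higher. That call was lost with no filter (limma adjusted p = 0.0990) and with spike-in scaling (1.17, adjusted p = 0.252). It was also lost without either whole-root array and without sorted-protoplast replicate 1. AT3G28170 and AT3G28190, on either side of CSLC04, were below the signal filter, with overlapping groups and differences of -0.11 and -0.08.

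Markers of other cell types were few. Of 5 xylem markers listed 1 was tested, IRX15, with a summed signal of 128 to 218 on the sorted-protoplast arrays and 47.2 to 54.8 on the whole-root arrays. Of the shoot markers, LHCB4.1 differed by -0.97 and RCA by -0.65 on the log2 scale, and neither passed. The endodermis, phloem and root cap markers had 0 probe sets with a single gene in the annotation used, which leaves many probe sets without a gene.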
